A study of Homo sapiens with 16 samples.

Results

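The transcripts of 9 readers of histone H3 lysine 36 (H3K36) methylation were examined in 293T cells, a human embryonic kidney line, after depletion of SETD2 or of hnRNP L. The readers are MORF4L1, PSIP1, HDGF, HDGFL2, ZMYND11, GLYR1, DNMT3A, DNMT3B and BRPF1. They were selected by gene name as proteins that bind the mark through a PWWP domain or a chromodomain, and each was found as 1 of the 58884 genes of the expression table. Wild type cells were transfected for 72 h with a scramble siRNA pool, an siRNA pool against SETD2 or an siRNA pool against hnRNP L, and RNA was sequenced in 2 libraries per siRNA. The labels number the scramble and hnRNP L siRNA libraries 1 and 2 and the SETD2 siRNA libraries 2 and 3. The study's reporting summary describes its high-throughput replicates as biological. The p-values rest on the spread between 2 such libraries per group, pooled over the groups and moderated by the spread of other genes.

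SETD2 is the enzyme that places the third methyl group on H3K36 as it travels with elongating RNA polymerase II, and the mark therefore lies over the bodies of transcribed genes. Readers hold the modified nucleosome in an aromatic cage of a PWWP domain or a chromodomain and bring along other activities. These include histone acetylation and deacetylation, de novo DNA methylation, passage of polymerase through nucleosomes and the choice of splice sites. hnRNP L is an RNA-binding protein that regulates alternative splicing. A comparison of each depletion with scramble siRNA therefore asks whether the cells changed the transcript levels of proteins that read the mark when its writer, or the splicing factor that associates with the writer, was reduced.

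The table gives TPM (transcript abundance per fixed library total), a level scaled for gene length and for the library total. Levels can be compared between genes within a library. Between libraries, a TPM is a share of the total and also depends on how much of it other genes take up. TPM keep no read counts, and the depth behind a single value is unknown. Fold changes were taken on log2(TPM + 0.5) and tested with limma in 1 fit of all 6 libraries over the 16300 genes whose TPM averaged 0.5 or more. Each adjusted p is from limma with Benjamini-Hochberg adjustment over those genes. A call needed both an adjusted p under 0.05 and more than a 1.5-fold difference, and all 9 readers passed the filter on low TPM. SE is the standard error and CI the confidence interval of a log2 fold change from limma. SETD2 averaged 12.5 ± 1.19 TPM (SD, n = 2) in the scramble libraries and fell to 4.58 ± 0.474 TPM (SD, n = 2) with its siRNA. Its limma adjusted p was 0.00603, and it was 0.162 without scramble replicate 1, 0.0820 without SETD2 siRNA replicate 2 and 0.162 when genes with low TPM were kept. HNRNPL averaged 399 ± 82.1 TPM (SD, n = 2) in the scramble libraries and fell to 26.9 ± 2.67 TPM (SD, n = 2) with its siRNA, with a limma adjusted p of 8.48e-06. The mitochondrially encoded genes held 17.5% of the TPM in scramble replicate 1 and between 6.70% and 10.9% in the other 5 libraries, which lowers the TPM of all other genes in scramble replicate 1. The whole table shifted slightly downward with hnRNP L siRNA, with a median log2 fold change of -0.08 against scramble siRNA, -0.10 against SETD2 siRNA, and 0.01 for SETD2 siRNA against scramble siRNA. With hnRNP L siRNA, 74.05% of the called genes were lower than with scramble siRNA, and 54.55% after median-ratio scaling of the libraries. Between the depletions these shares were 68.61% and 50.97%. Of 7 markers of 293T cells, 6 were expressed and NEFH was never above 0.06 TPM. The summed TPM of these markers was 1041 to 1222 with scramble, 1287 to 1380 with SETD2 and 1496 to 1648 with hnRNP L siRNA, and NEFM and NEFL, which encode neurofilaments, were called higher with hnRNP L siRNA than with scramble siRNA. The other tested markers did not pass the threshold in that comparison, with log2 fold changes of 0.28 for VIM, -0.03 for KRT18, -0.26 for KRT8 and -0.36 for MKI67. Of 10 markers of blood, liver, fibroblast, endothelial, muscle and astrocyte cells, 8 never exceeded 1 TPM and PTPRC was listed at 0 in every library. Their summed level was between 6.76 and 9.94 TPM in all 6 libraries. The part of these shifts in the values below was not tested beyond the rescaled fits. In bulk RNA, fewer cells that carry a transcript and less of it per cell cannot be told apart.

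The 9 readers covered a wide range of levels, and their order was the same in nearly every library. MORF4L1 was the most abundant with a mean of 785 TPM over the 6 libraries, which ranked it 167th of the 16300 tested genes, and DNMT3A was the least abundant with a mean of 4.69 TPM. Between these came HDGF at 644 TPM, PSIP1 at 332 TPM, HDGFL2 at 110 TPM, GLYR1 at 46.9 TPM, DNMT3B at 20.4 TPM, ZMYND11 at 10.1 TPM and BRPF1 at 9.34 TPM. Only 2 neighbouring pairs in this order had ranges that overlapped over the libraries. MORF4L1 and HDGF overlapped in range, although MORF4L1 was the higher of the 2 within each of the 6 libraries. ZMYND11 and BRPF1 differed by less than the spread between libraries, with ZMYND11 higher in 5 of 6. The other neighbours were separated by 1.94-fold to 3.02-fold in their means and kept their order in all 6 libraries. MORF4L1, HDGF and PSIP1 together made up 88.4% to 90.9% of the summed TPM of the readers in each library.

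**Figure D1:**
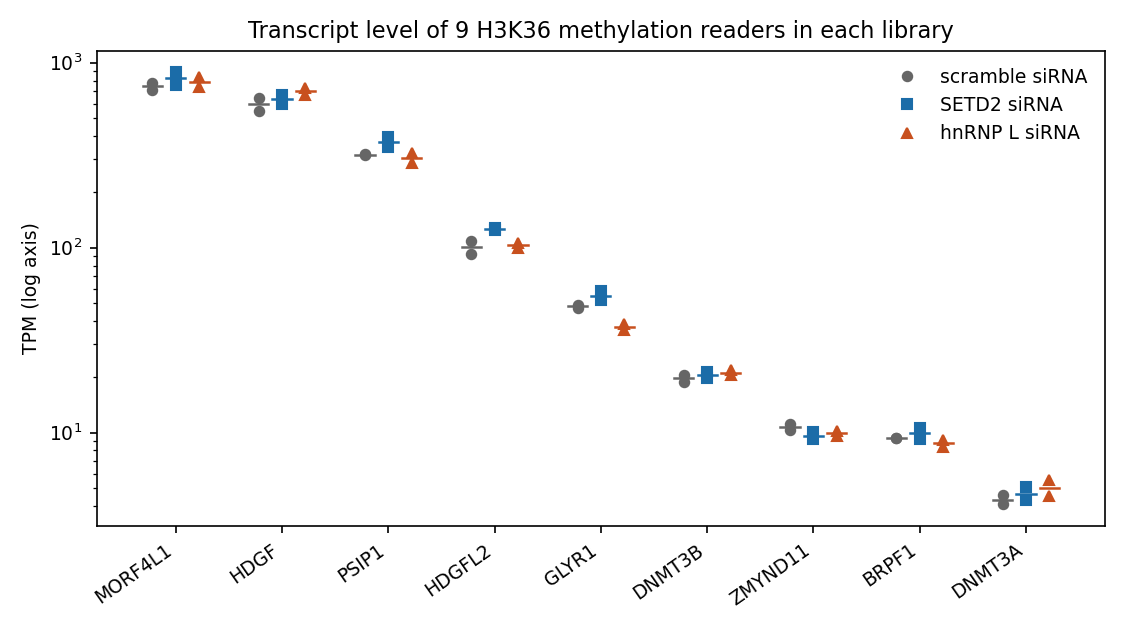
TPM of each reader (log axis) in every library, with grey circles for scramble, blue squares for SETD2 and orange triangles for hnRNP L siRNA, and a short line at the mean of each pair of libraries. The readers run from 785 TPM for MORF4L1 to 4.69 TPM for DNMT3A as means over the 6 libraries. GLYR1 is the 1 reader whose 3 groups do not overlap in TPM as deposited.

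None of the 9 readers was called in any of the 3 comparisons, against a background of 0.104% of tested genes called for SETD2 siRNA against scramble siRNA, 6.76% for hnRNP L siRNA against scramble siRNA and 6.84% for hnRNP L siRNA against SETD2 siRNA. At an adjusted p under 0.05 with no requirement on the fold change, 1 reader passed in 1 comparison. It was GLYR1, which was lower with hnRNP L than with SETD2 siRNA. The shares of all tested genes at that threshold were 0.104% after SETD2 depletion, 11.2% after hnRNP L depletion and 10.8% between the 2 depletions. At an unadjusted p under 0.05 from limma the readers numbered 1 of 9 (HDGFL2) after SETD2 depletion, 1 of 9 (GLYR1) after hnRNP L depletion and 3 of 9 (GLYR1, HDGFL2 and PSIP1) between the depletions. Among all tested genes that threshold was passed by 13.1%, 28.4% and 28.5%. Read against these shares, the counts of readers do not stand out.

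The intervals show how large a change the fit of all 6 libraries described above leaves room for. For SETD2 siRNA against scramble siRNA, the 95% confidence intervals of all 9 log2 fold changes lay within 1.5-fold in either direction, between -0.41 and 0.57. For hnRNP L siRNA against scramble siRNA they did so for 8 of 9, and the interval of GLYR1 reached -0.59, just past the 1.5-fold mark of -0.58. Between the depletions they did so for 8 of 9, and that of GLYR1 reached -0.78. These intervals are per gene and are not adjusted for the number of genes. They were not computed for the alternative fits, so the 1.5-fold bound is given for this fit only. For HDGFL2 after SETD2 depletion the SE was 0.108 here, 0.126 with no variance trend and 0.122 in a fit of only the 2 groups compared. The SE of the log2 fold change ran from 0.103 for GLYR1 to 0.156 for DNMT3A. With 2 libraries per group, a change several times its SE could still miss the threshold. After SETD2 depletion UHRF1, a partner gene described below, had a log2 fold change of 0.34 (SE 0.0922, limma adjusted p = 0.215). With 17 of 16300 genes called there, the count of 0 readers says little about changes near 1.5-fold.

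**Figure D2:**
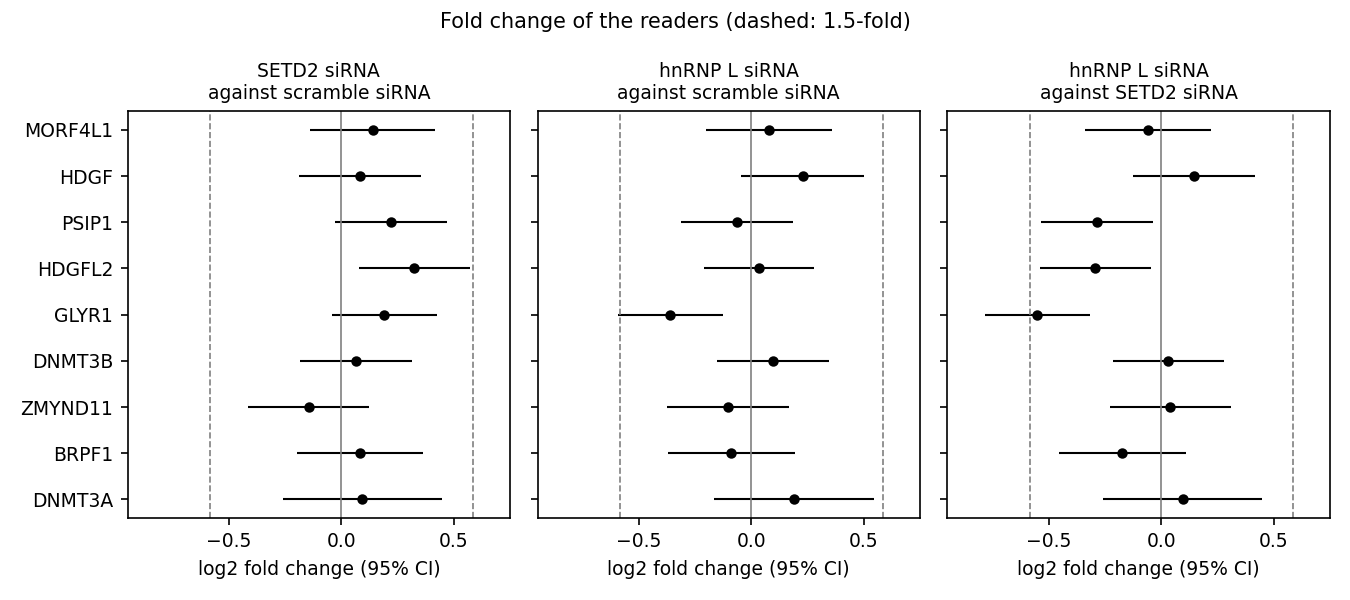
Log2 fold change of each reader with its 95% confidence interval from limma in the 3 comparisons, with dashed lines at 1.5-fold. Every interval stays inside the dashed lines except that of GLYR1 in the 2 comparisons with hnRNP L siRNA, where the lower bounds are -0.59 and -0.78.

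GLYR1 (ENSG00000140632, also called NPAC or NDF) encodes a PWWP protein that acts as a cofactor of the histone demethylase KDM1B and loosens nucleosomes in transcribed genes. Its locus is on chromosome 16 (hg38, 4803203 to 4847288, minus strand), and all positions below are in this build. It measured 47.43 and 48.89 TPM in the scramble libraries, 52.15 and 58.02 TPM after SETD2 siRNA, and 35.97 and 38.87 TPM after hnRNP L siRNA. In TPM as deposited the 3 groups did not overlap, with hnRNP L siRNA the lowest and SETD2 siRNA the highest. The gap between scramble and SETD2 siRNA depended on the scaling. Its log2 fold change was 0.0935 once the mitochondrially encoded genes, highest in scramble replicate 1, were taken out of the TPM totals. The mean of GLYR1 fell from 55.1 ± 4.15 TPM (SD, n = 2) with SETD2 siRNA to 37.4 ± 2.05 TPM (SD, n = 2) with hnRNP L siRNA, a log2 fold change of -0.55 (SE 0.103, 95% CI -0.78 to -0.32, limma adjusted p = 0.0146). This is a 1.46-fold difference, under the cut-off of 1.5. Against scramble siRNA, with a mean of 48.2 ± 1.03 TPM (SD, n = 2), the log2 fold change was -0.36 with hnRNP L siRNA (SE 0.103, limma adjusted p = 0.0562) and 0.19 with SETD2 siRNA (SE 0.103, limma adjusted p = 0.454).

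The direction of the GLYR1 difference between the depletions was the same in all 17 alternative fits, with log2 fold changes from -0.63 to -0.43. Its adjusted p was under 0.05 in 12 of them and ranged from 0.00429 to 0.140 in limma. It was above 0.05 when any 1 of the 4 libraries compared was left out (0.0757 and 0.120 without SETD2 siRNA replicates 2 and 3, 0.140 and 0.0763 without hnRNP L siRNA replicates 1 and 2) and when genes with low TPM were kept (0.0618). Against scramble siRNA, the adjusted p of GLYR1 from limma was 0.0364 when only protein-coding and lncRNA genes were tested and 0.0323 once the mitochondrially encoded genes were taken out of the TPM totals, and it was above 0.05 in the other 17 fits, reaching 0.308. An exon of GLYR1 overlaps an exon of UBN1 on the opposite strand, and the strand setting of the counting is not given in the sources used here, so that reads in the shared part could have been counted to either. UBN1 measured 12.89 and 11.19 TPM in the scramble libraries, 11.08 and 13.38 TPM after SETD2 siRNA, and 8.91 and 10.5 TPM after hnRNP L siRNA, and its log2 fold change between the depletions was -0.32 (SE 0.144, limma adjusted p = 0.188). KDM1B, the demethylase that GLYR1 assists, was named after its values were seen. It had 28.24 and 36.33 TPM with SETD2 siRNA and 18.33 and 25.9 TPM with hnRNP L siRNA, groups that did not overlap, with a log2 fold change of -0.55 (SE 0.187, limma adjusted p = 0.0962).

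**Figure D3:**
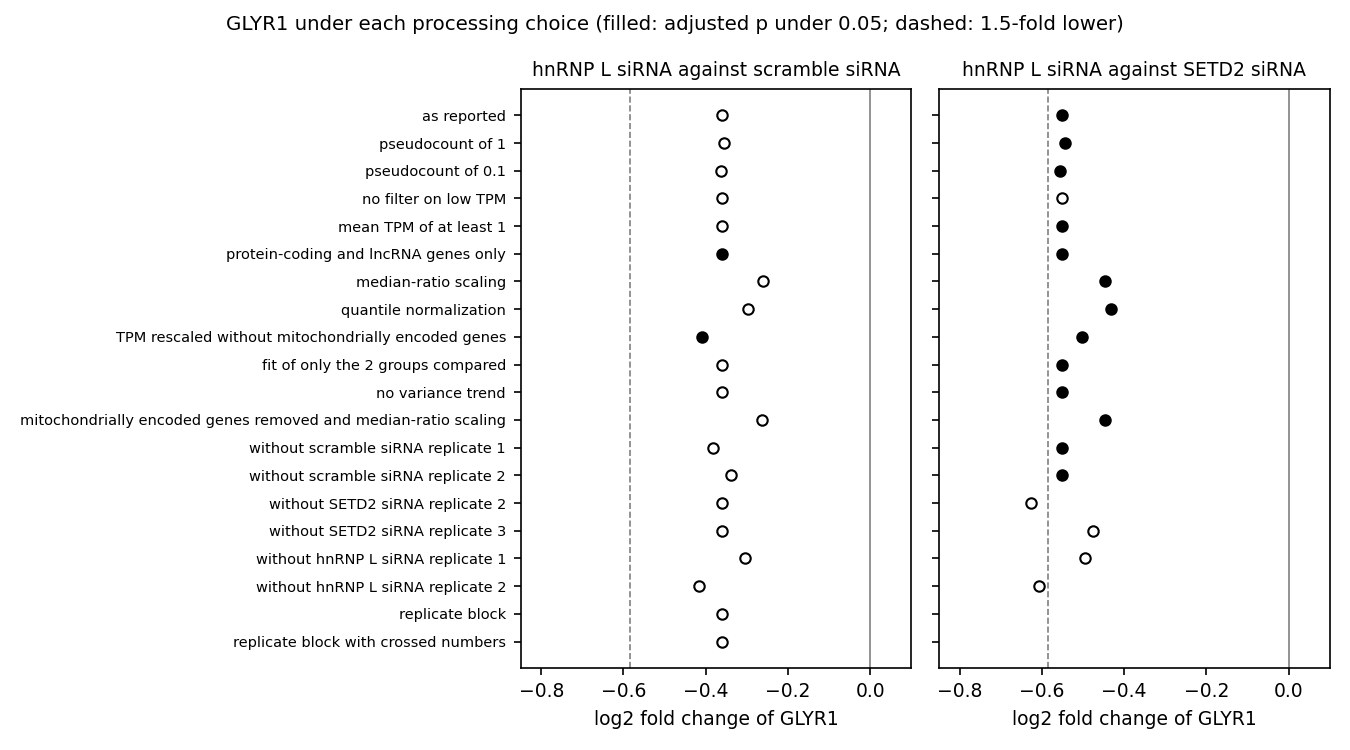
Log2 fold change of GLYR1 for hnRNP L siRNA against scramble siRNA (left) and against SETD2 siRNA (right) under each processing choice, with filled circles for an adjusted p under 0.05 from limma, a solid line at 0 and a dashed line at 1.5-fold lower. All points lie below 0, and in the right panel the open circles are the fits that leave out 1 of the 4 libraries compared and the fit without a filter.

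The genes whose values followed GLYR1 most closely over the 6 libraries were AC007406.5, with a Pearson's r of 0.9981 on log2(TPM + 0.5), C9orf64 with 0.9971 and FAM98B with 0.9964. They are given as a description only. The 6 libraries fall into 3 groups, and 473 of the other 16299 tested genes had an r above 0.95 with GLYR1.

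PSIP1, HDGF and HDGFL2 belong to 1 family, whose members have a PWWP domain near the N-terminus. PSIP1 encodes LEDGF, a chromatin tether for the KMT2A complex and for HIV integrase, and HDGFL2 encodes its closest relative, HRP2. Both are known to help polymerase pass nucleosomes. HDGF was first described as a secreted growth factor. All 3 were abundant, and HDGFL2 and PSIP1 were highest with SETD2 siRNA.

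HDGFL2 (ENSG00000167674) (chromosome 19, 4472297 to 4502208, plus strand) measured 92.26 and 109.15 TPM in the scramble libraries, 126.98 and 124.76 TPM after SETD2 siRNA, and 99.93 and 105.63 TPM after hnRNP L siRNA. Both SETD2 siRNA libraries lay above the other 4. The log2 fold change of HDGFL2 after SETD2 depletion was 0.33 (SE 0.108, 95% CI 0.08 to 0.57, limma adjusted p = 0.266), the largest among the readers in that comparison, and it did not pass the threshold. Between the depletions it was -0.29 (SE 0.108, limma adjusted p = 0.116). PSIP1 (ENSG00000164985) (chromosome 9, 15464066 to 15510995, minus strand) measured 320.47 and 316.11 TPM in the scramble libraries, 347.96 and 395.8 TPM after SETD2 siRNA, and 285.71 and 324.93 TPM after hnRNP L siRNA. Here too both SETD2 siRNA libraries were above the other 4 in TPM as deposited, while scramble and hnRNP L siRNA overlapped. The log2 fold change of PSIP1 was 0.22 after SETD2 depletion (SE 0.110, limma adjusted p = 0.423) and -0.28 between the depletions (SE 0.110, limma adjusted p = 0.129). After SETD2 depletion it was 0.1237 without the mitochondrially encoded genes in the TPM totals and 0.1172 after quantile normalization, so the gap depended on the scaling. The long and short splice forms of PSIP1, of which the long one binds integrase, are summed in its TPM. PSIP1 shares exonic sequence with SNAPC3 on the opposite strand, so here too reads in the shared part could have been counted to either. SNAPC3, a subunit of the complex that activates small nuclear RNA genes, had 20.48 and 21.93 TPM with SETD2 siRNA and 12.06 and 13.09 TPM with hnRNP L siRNA. It was called between the depletions with a log2 fold change of -0.73 (SE 0.108, limma adjusted p = 0.00714). SNAPC3 was named after its values were seen, and its call was not followed through the alternatives.

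HDGF (ENSG00000143321) (chromosome 1, 156742109 to 156766925, minus strand) measured 551.36 and 646.71 TPM in the scramble libraries, 595.9 and 670.83 TPM after SETD2 siRNA, and 669.87 and 731.34 TPM after hnRNP L siRNA. Its hnRNP L siRNA libraries were above both scramble libraries but overlapped those of SETD2 siRNA. The log2 fold change after hnRNP L depletion was 0.23 (SE 0.120, 95% CI -0.04 to 0.50, limma adjusted p = 0.248). HDGFP1, a processed pseudogene of HDGF, held at most 2.94 TPM.

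Ratios between family members do not depend on the scaling between libraries. The ratio of HDGF to PSIP1 TPM was 1.72 and 2.05 with scramble siRNA, 1.71 and 1.69 with SETD2 siRNA and 2.34 and 2.25 with hnRNP L siRNA. Both hnRNP L siRNA libraries thus had more HDGF transcript per PSIP1 transcript than the other 4 libraries. The log2 ratio differed by 0.29 from scramble siRNA and by 0.43 from SETD2 siRNA (exact permutation test, two-sided, p = 0.333 for each, the smallest p that 2 libraries against 2 can give). The ratio of HDGFL2 to PSIP1 was between 0.288 and 0.365 in all 6 libraries, and its groups overlapped.

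MORF4L1 (ENSG00000185787), also called MRG15, is the chromodomain member. It belongs to the NuA4 acetyltransferase and SIN3 deacetylase complexes and is known as an adaptor between H3K36 trimethylation and the splicing regulator PTBP1. The gene (chromosome 15, 78810487 to 78898139, plus strand) measured 708.66 and 781.16 TPM in the scramble libraries, 756.71 and 886.88 TPM after SETD2 siRNA, and 737.38 and 838.1 TPM after hnRNP L siRNA, and all 3 groups overlapped. Its log2 fold changes were 0.14 after SETD2 depletion (SE 0.123, limma adjusted p = 0.656) and 0.08 after hnRNP L depletion (SE 0.123, limma adjusted p = 0.713). MORF4L1P1, a processed pseudogene that may take reads from it, was listed at 41.98 to 51.59 TPM, with log2 fold changes of 0.19 and 0.13 that did not pass the threshold (limma adjusted p 0.466 and 0.454).

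DNMT3A and DNMT3B encode the de novo DNA methyltransferases, whose PWWP domains bind methylated H3K36. DNMT3B is known to be drawn to the trimethylated gene bodies and DNMT3A to dimethylated intergenic regions. DNMT3B (ENSG00000088305) (chromosome 20, 32762385 to 32809359, plus strand) measured 18.72 and 20.54 TPM in the scramble libraries, 19.81 and 21.3 TPM after SETD2 siRNA, and 20.35 and 21.7 TPM after hnRNP L siRNA. It varied least of the 9 readers, with a ratio of 1.16 between its highest and lowest library on TPM + 0.5, against a median of 1.43 over all tested genes. Its log2 fold changes were 0.07 after SETD2 depletion (95% confidence interval -0.18 to 0.31) and 0.10 after hnRNP L depletion (95% confidence interval -0.15 to 0.35). DNMT3A (ENSG00000119772) (chromosome 2, 25227855 to 25342590, minus strand) measured 4.6 and 4.09 TPM in the scramble libraries, 4.3 and 5.05 TPM after SETD2 siRNA, and 4.55 and 5.53 TPM after hnRNP L siRNA. Its groups overlapped in every comparison. The ratio of DNMT3B to DNMT3A was between 3.92 and 5.02 in all libraries, with no group apart from the others. DNMT3L, the catalytically inactive partner of both enzymes, was listed at 0 in all 6 libraries. Splice forms of DNMT3B that lack activity, and the short and long forms of DNMT3A, are summed in gene-level values.

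ZMYND11 and BRPF1 were the readers with low levels that act through larger complexes. ZMYND11, also called BS69, prefers trimethylated H3K36 on the variant histone H3.3 and restrains elongation. ZMYND11 (ENSG00000015171) (chromosome 10, 130088 to 254637, plus strand) measured 10.28 and 11.13 TPM in the scramble libraries, 10.05 and 9.22 TPM after SETD2 siRNA, and 10.24 and 9.61 TPM after hnRNP L siRNA. Both depletions thus lay below scramble siRNA without overlap, by a log2 fold change of -0.15 after SETD2 depletion (SE 0.119, limma adjusted p = 0.628) and -0.10 after hnRNP L depletion (SE 0.119, limma adjusted p = 0.610). The comparisons share the scramble libraries, neither difference passed the threshold, and the sign of the second turned after quantile normalization. BRPF1, the scaffold of the acetyltransferases KAT6A and KAT6B, is encoded on chromosome 3 (9731729 to 9748019, plus strand). BRPF1 (ENSG00000156983) measured 9.36 and 9.29 TPM in the scramble libraries, 9.25 and 10.62 TPM after SETD2 siRNA, and 9.12 and 8.38 TPM after hnRNP L siRNA. The hnRNP L siRNA libraries were below the other 4 in TPM as deposited. The log2 fold change of BRPF1 was -0.09, with the opposite sign after median-ratio scaling or quantile normalization, against scramble siRNA (SE 0.124, limma adjusted p = 0.682) and -0.17 against SETD2 siRNA (SE 0.124, limma adjusted p = 0.399).

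The readers whose groups did not overlap in TPM as deposited were also counted beside the whole table. After SETD2 depletion, both libraries lay above both scramble libraries for 3 of 9 readers and below them for 1, against 22.9% and 20.6% of all tested genes. After hnRNP L depletion the counts were 1 above and 3 below, against 18.8% and 37.8%. Between the depletions they were 0 above and 4 below, against 18.6% and 41.2%. The median log2 fold change of the readers was 0.09 after SETD2 depletion, 0.03 after hnRNP L depletion and -0.06 between them. The whole table stood at 0.01, -0.08 and -0.10.

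Genes related to the readers were described from 3 lists. The first held 16 other genes whose proteins carry a PWWP domain, of which 14 passed the filter. HDGFL1, listed at 0, and ZCWPW2, at most 0.44 TPM, did not. After SETD2 depletion 0 of the 14 passed an adjusted p of 0.05 from limma. After hnRNP L depletion 1 of the 14 was called and lower, where 5.01% of all tested genes were. Between the depletions 2 of the 14 were called and lower, where 4.69% of all tested genes were. With so few genes, nothing is read from either count about the list. ZCWPW1, which binds H3K36 and H3K4 trimethylation at sites of meiotic recombination, was among the lower genes in both. It measured 4.91 and 5.19 TPM in the scramble libraries, 4.05 and 3.38 TPM after SETD2 siRNA, and 2.11 and 2.48 TPM after hnRNP L siRNA. The hnRNP L siRNA libraries were the lowest, with a log2 fold change of -0.99 against scramble siRNA (SE 0.157, limma adjusted p = 0.00871) and -0.59 against SETD2 siRNA (SE 0.157, limma adjusted p = 0.0468). Without scramble replicate 1, hnRNP L siRNA replicate 1 or hnRNP L siRNA replicate 2 the first adjusted p from limma became 0.0603, 0.0888 and 0.0528, it was 0.0613 with no filter, and the second was above 0.05 in 14 of 17 alternatives, among them each left-out library. NSD1, an H3K36 dimethyltransferase with PWWP domains, had 14.29 and 16.03 TPM with SETD2 siRNA and 8.01 and 10.5 TPM with hnRNP L siRNA. Its log2 fold change between the depletions was -0.69 (SE 0.154, limma adjusted p = 0.0265), and against scramble siRNA, with 14.4 and 12.18 TPM, it was -0.51 (SE 0.154, limma adjusted p = 0.0691). NSD1 was called in 9 of 17 alternatives. Its call was lost when any 1 of the 4 libraries compared was left out, with limma adjusted p from 0.0591 to 0.195, with no filter (0.118), without the mitochondrially encoded genes (0.0574) and with no variance trend (0.0571), and after quantile normalization its log2 fold change of -0.56 was under the cut-off. Over the list, the median log2 fold change was 0.03 after SETD2 depletion, -0.11 after hnRNP L depletion and -0.23 between the depletions, where the whole table stood at 0.01, -0.08 and -0.10. MSH6, the mismatch repair protein that finds H3K36 trimethylation through its PWWP domain, had the smallest p of the list after SETD2 depletion, with a log2 fold change of 0.30 (SE 0.109, limma adjusted p = 0.309).

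The second list held the chromodomain protein MSL3 and the Tudor proteins PHF1, MTF2 and PHF19, which bind H3K36 trimethylation and, for the Tudor proteins, accompany Polycomb repressive complex 2. None was called. At an adjusted p under 0.05 and any fold change, 2 of the 4 fell after hnRNP L depletion and 1 of the 4 between the depletions, where 8.48% and 7.99% of all tested genes fell, and a list of 4 genes is too short to be read against these shares. MSL3, of a dosage compensation complex that acetylates histone H4, measured 23.45 and 21.73 TPM in the scramble libraries, 18.2 and 21.87 TPM after SETD2 siRNA, and 13.51 and 16.71 TPM after hnRNP L siRNA. Its log2 fold change after hnRNP L depletion was -0.57 (SE 0.140, limma adjusted p = 0.0348). That adjusted p from limma was 0.129 with no filter, 0.06103 in a fit of only the 2 groups compared and 0.07385 with no variance trend. MTF2 measured 44.28 and 45.34 TPM in the scramble libraries, 43.34 and 50.26 TPM after SETD2 siRNA, and 32.06 and 34.86 TPM after hnRNP L siRNA. It fell by 0.42 on the log2 scale after hnRNP L depletion (SE 0.110, limma adjusted p = 0.0438) and by 0.48 between the depletions (SE 0.110, limma adjusted p = 0.0295). The second adjusted p from limma was 0.09331 with no filter and 0.07169 with no variance trend, and the first was not followed through the alternatives. Leaving out any 1 of the 6 libraries took the adjusted p of MSL3 from limma to between 0.0591 and 0.242, and leaving out 1 of the 4 compared took that of MTF2 between the depletions to between 0.0830 and 0.214. After SETD2 depletion, the smallest p of the list was that of MSL3, with a log2 fold change of -0.17 (SE 0.140, limma adjusted p = 0.620). Like GLYR1, MSL3 and MTF2 were lowest with hnRNP L siRNA, without overlap with the other groups. So was PHF1, with 18.79 and 16.23 TPM, while PHF19 was highest there without overlap, with 37.25 and 37.29 TPM. Of all tested genes, 37.8% were lower without overlap after hnRNP L depletion and 41.2% between the depletions.

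The third list held 24 partners of the readers, of which 23 passed the filter and DNMT3L did not. None was called against scramble siRNA. At an adjusted p under 0.05 and any fold change 1 of the 23 rose after hnRNP L depletion, where 2.72% of all tested genes rose. ING5, a subunit of the acetyltransferase complexes that BRPF1 scaffolds, was that gene. It rose from 26.02 and 25.34 TPM with scramble siRNA to 36.7 and 37.64 TPM, and had 29.16 and 30.3 TPM with SETD2 siRNA. The log2 fold change of ING5 after hnRNP L depletion was 0.53 (SE 0.0967, limma adjusted p = 0.0136), and it was 0.62 and called after median-ratio scaling. Its adjusted p from limma was 0.0544 without scramble replicate 1 and 0.111 and 0.0970 without hnRNP L siRNA replicates 1 and 2. KDM5A, a demethylase of trimethylated H3K4 that works with MORF4L1, was the 1 partner of 23 called between the depletions, where 4.69% of all tested genes were called and lower. It had 13.35 and 14.84 TPM with SETD2 siRNA and 7.81 and 9.83 TPM with hnRNP L siRNA, which did not overlap. Its log2 fold change was -0.65 (SE 0.147, limma adjusted p = 0.0273). KDM5A was called in 8 of 17 alternatives. Its call was lost when any 1 of the 4 libraries compared was left out, with limma adjusted p from 0.0666 to 0.202, with no filter (0.113) and with no variance trend (0.0565). Its log2 fold change was under the cut-off after median-ratio scaling (-0.55, or -0.55 with the mitochondrially encoded genes also removed) and quantile normalization (-0.53). UHRF1, which recruits the maintenance methyltransferase DNMT1, had the smallest p of the list after SETD2 depletion, with 44.65 and 45.21 TPM with scramble siRNA and 56.59 and 57.8 TPM with SETD2 siRNA. The log2 fold change of UHRF1 was 0.34 (SE 0.0922, limma adjusted p = 0.215) and did not pass the threshold. The median log2 fold change of the partners was 0.16 after SETD2 depletion, 0.01 after hnRNP L depletion and -0.11 between the depletions. The whole table stood at 0.01, -0.08 and -0.10. Without the mitochondrially encoded genes in the TPM totals, the whole table stood at -0.0746 and UHRF1 at 0.2483 after SETD2 depletion. The median of the partners was not computed on that scale.

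**Figure D4:**
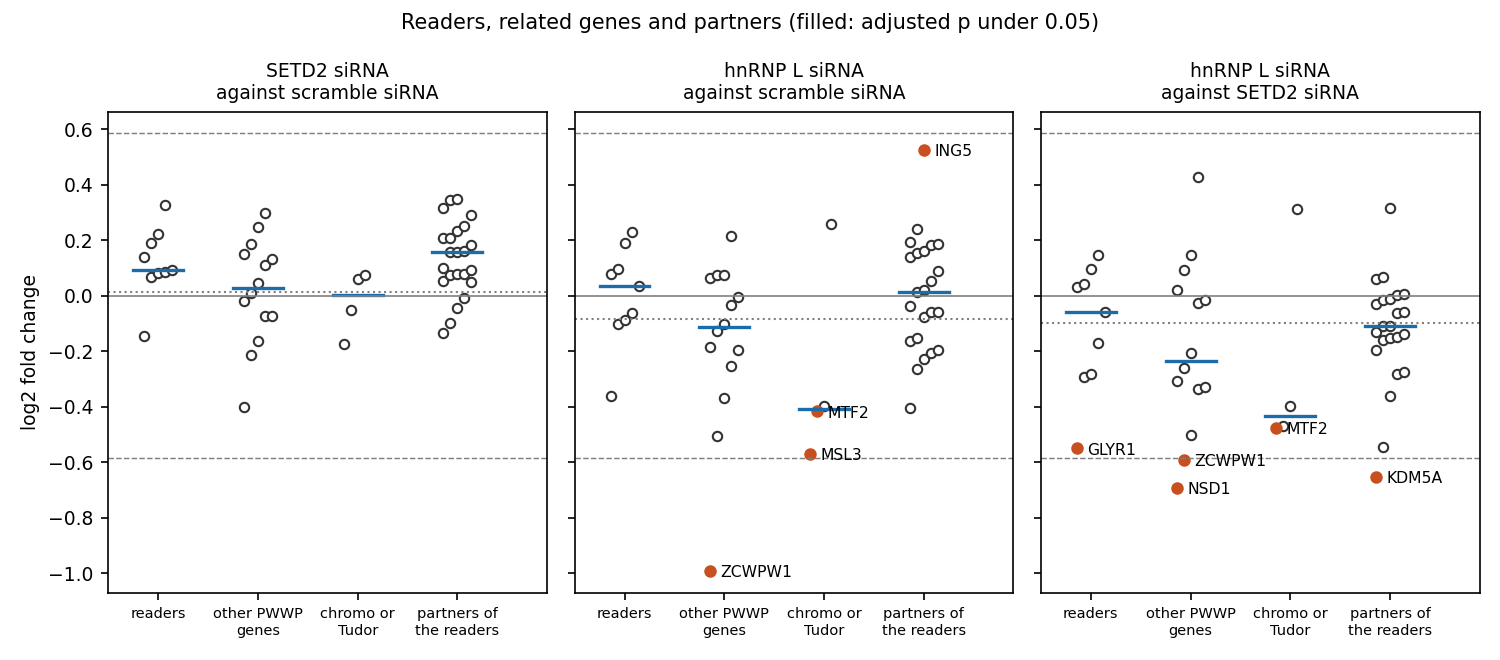
Log2 fold change of the 9 readers, 14 other PWWP genes, 4 chromodomain or Tudor readers and 23 partners in the 3 comparisons, with filled circles at an adjusted p under 0.05 from limma, blue lines at list medians, a dotted line at the median of all tested genes and dashed lines at 1.5-fold. No circle is filled after SETD2 depletion, 4 are filled after hnRNP L depletion and 5 between the depletions, where GLYR1 is the only filled reader.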

How the data were processed

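The 6 RNA-seq libraries of 293T cells, 2 per siRNA, were used and grouped by the labels. The ChIP-seq samples were not analysed here. Per the labels and the methods, the authors aligned reads to hg38 with STAR 2.6.1c and made the deposited TPM per gene with RSEM 1.3.0. TPM are scaled within a library and keep no counts, so counting error is unknown. Here, log2(TPM + 0.5) of the 16300 genes whose TPM averaged 0.5 or more was fitted in R 4.3.3 by limma 3.58.1, using a mean for each siRNA, a variance trend and Benjamini-Hochberg adjustment. The fit was run on data simulated from its own spreads, with changes larger than those of the readers, which does not test changes of the readers' size. The study's edgeR test needs counts and was not run. Positions, biotypes and overlaps are from GENCODE 44 on hg38, a later release than the gene models the authors used. Named genes were the readers, the siRNA targets and, in 3 lists of related genes, each called gene and the gene with the smallest p per comparison. Overlapping neighbours and pseudogene copies were added after the values were seen. The members, lists and thresholds were chosen with earlier results of these data known. The alternatives were other pseudocounts, filters, scalings and biotypes, 2-group fits, no variance trend, no fold cut-off, a replicate block, and fits that leave out 1 library. Tables and plots used Python 3.11.15, pandas 2.3.3, NumPy 2.4.6 and Matplotlib 3.10.9.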

Additional observations from a re-analysis of the deposited data

Results flagged for a closer look

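GLYR1 differed between hnRNP L and SETD2 siRNA in the direct comparison, with a log2 difference of -0.55 (SE 0.103, limma adjusted p = 0.0146). At 1.46-fold it was under the cut-off and was not called, and 1 of 9 readers at an adjusted p under 0.05 stands beside 10.8% of all tested genes. Without any 1 of the 4 libraries compared, its limma adjusted p was between 0.0757 and 0.140. Against scramble siRNA neither siRNA passed the threshold for GLYR1, with limma adjusted p of 0.0562 for hnRNP L and 0.454 for SETD2. With 2 libraries in each group, no search for single deviating libraries was made.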

How the results depend on the processing

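The count of called readers was 0 in the 3 comparisons and in all alternatives but 1: with no fold cut-off it was 1 between the depletions (GLYR1). The counts of called genes moved more. For SETD2 siRNA against scramble siRNA, 17 genes were called, and 1 with no filter on low TPM, 27 at a mean TPM of 1 or more, 60 among protein-coding and lncRNA genes and 8 to 38 with 1 library left out. For hnRNP L siRNA against scramble siRNA, 1102 genes were called, and 235 with no filter, 1826 with no fold cut-off and 172 to 821 with 1 library left out. Between the depletions, 1115 genes were called, and 186 with no filter, 1753 with no fold cut-off and 127 to 1006 with 1 library left out. Why these counts moved was not tested.

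The replicate block called 715 genes and 0 readers for hnRNP L siRNA against scramble siRNA. Deviations from the group means in scramble and hnRNP L siRNA libraries with the same number had r = -0.1256 across genes. With 2 libraries per group this is a single contrast, and it cannot tell whether a number marks a shared day or batch. The labels do not state what the number marks. A replicate block with crossed numbers, chosen after seeing the data, called 1406 genes and 0 readers. SETD2 siRNA shares only the number 2 with each other group, and no block was fitted for its comparisons.

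Readers whose log2 fold change was near 0 turned sign in some alternatives, and none of these values passed the threshold. For SETD2 siRNA against scramble siRNA, HDGF was -0.0948 after quantile normalization, and without the mitochondrially encoded genes HDGF was -0.0152, DNMT3B -0.0299 and BRPF1 -0.0092. For hnRNP L siRNA against scramble siRNA, median-ratio scaling gave 0.0369 for PSIP1 and 0.0066 for BRPF1, quantile normalization gave -0.0015 for MORF4L1, 0.0239 for ZMYND11 and 0.0505 for BRPF1, and HDGFL2 was -0.0145 without the mitochondrially encoded genes. Between the depletions, MORF4L1 was 0.0469 after median-ratio scaling. Both changes of scale together, added after seeing the data, gave 0.0371 for PSIP1, 0.0068 for BRPF1 and 0.0472 for MORF4L1 in the same comparisons. With 1 library left out, the ranges that crossed 0 after SETD2 depletion were -0.0326 to 0.1973 for HDGF, -0.0115 to 0.198 for DNMT3A and -0.011 to 0.1786 for BRPF1. After hnRNP L depletion they were -0.0129 to 0.1717 for MORF4L1, -0.1555 to 0.0298 for PSIP1 and -0.0869 to 0.1544 for HDGFL2. Between the depletions they were -0.1739 to 0.055 for MORF4L1, -0.0179 to 0.1004 for ZMYND11, -0.0315 to 0.2244 for DNMT3A and -0.019 to 0.0831 for DNMT3B. The study's reporting summary gives the aligned read pairs of each library. TPM hold no counts per gene, so what depth limits for a single gene cannot be stated.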
